A study of Rattus norvegicus with 12 samples.

Results

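Small leucine-rich proteoglycans are short matrix proteins built on a solenoid of leucine-rich repeats, most of them carrying glycosaminoglycan chains. Genes of the family were followed by the gene symbols of the deposited tables, and were chosen with earlier results of these data known. The family was taken as Bgn, Dcn, Fmod, Lum, Ogn, Aspn, Prelp and Omd, of which 6 of 8 had a row among the 12899 genes common to the 3 tables. Ogn and Omd were not analysed here. Bgn, Dcn, Fmod, Lum and Prelp had enough reads to be tested, and Aspn did not.

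In cartilage, tendon and intervertebral disc these proteins sit on collagen fibrils and set their diameter and spacing. Several also bind growth factors of the TGF-beta family. When freed from the matrix, biglycan and decorin can act on Toll-like receptors of nearby cells, and matrix metalloproteinases released in inflamed tissue cleave several family members.

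The RNA came from Wistar rat nucleus pulposus cells, the cells of the gel-like disc core, which grew out of explants in serum-containing DMEM. All cells were transduced with lentivirus, carrying either an shRNA against TonEBP (shTon) or the control vector (PLKO), so no group was untransduced. TonEBP, the product of Nfat5, is a transcription factor that adapts cells to high osmolarity. Cells received 50 ng/mL of the inflammatory cytokine TNF-a for 24 h (TNF) or were left untreated (CTR). The groups are shTon_TNF, shTon_CTR, PLKO_TNF and PLKO_CTR, with 3 libraries each, 1 from each of 3 numbered sets. What a set stands for (animals, cultures or days) is not stated in the labels, and p-values therefore reflect the spread among these samples alone, which may be technical. The labels give neither ages nor the shRNA sequence.

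The libraries held 7160042 to 18645538 reads on the genes of a deposited table, taking the largest sum per library. Levels below are normalised reads, that is, reads scaled to a common depth over the 12 libraries, and they are compared between libraries, not between genes. Nfat5 checks the labels. It had 1695, 499.7 and 232 normalised reads in the libraries labelled shTon_TNF of sets 1, 2 and 3, and 458, 457 and 288 in shTon_CTR. It had 642, 1092 and 483 in PLKO_TNF and 685, 1363 and 1818 in PLKO_CTR. Of the shTon libraries, the one labelled shTon_TNF in set 1 goes against its label. Family results of comparisons with shTon_TNF are therefore also given without it, and those among sets without the whole shTon_TNF group. Of the PLKO libraries, PLKO_TNF of set 3, at 483, lay within the range of the remaining shTon libraries. Of 10 nucleus pulposus markers 5 had a row (Krt8, Cd24, Pax1, Foxf1 and Lgals3), and all 5 were detected in every library. Skeletal muscle markers, 10 of 10 with a row, summed to 42100 to 96380 normalised reads in set 1, 16260.0 to 29600.0 in set 2 and 171 to 256 in set 3.

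Promoters are shown for Fmod and Lum, the tested genes with a promoter entry, because the knocked-down factor, TonEBP, binds DNA at a known core. The RefSeq promoters used here (build GRCr8, 250 bases before the gene start and 50 from it) covered 3 of the 6 genes, Aspn being the other. Capitals mark TGGAAA, the core of the TonEBP site.
Fmod chr13:48045317-48045616 (+): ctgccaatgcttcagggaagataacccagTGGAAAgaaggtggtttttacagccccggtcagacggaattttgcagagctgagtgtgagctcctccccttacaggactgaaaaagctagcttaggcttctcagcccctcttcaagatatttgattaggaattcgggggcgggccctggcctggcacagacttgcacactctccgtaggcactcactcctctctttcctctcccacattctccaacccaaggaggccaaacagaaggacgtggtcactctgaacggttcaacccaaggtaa
Lum chr7:34245456-34245755 (+): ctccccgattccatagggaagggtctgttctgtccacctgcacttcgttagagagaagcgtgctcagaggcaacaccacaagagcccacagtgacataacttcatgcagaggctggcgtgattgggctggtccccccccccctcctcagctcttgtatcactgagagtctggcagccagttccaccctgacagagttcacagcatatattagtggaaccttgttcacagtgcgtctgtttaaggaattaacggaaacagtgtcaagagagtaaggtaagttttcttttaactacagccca
The Fmod window held 1 TGGAAA, beginning 221 bases before the start, and the Lum window held 0 on either strand. The Aspn window held 1, beginning 88 bases before the start. TGGAAA stood in 22.7% of 33465 RefSeq promoters of this length, searched on both strands. The AP-1 site TGANTCA, which stood in 7.33%, was in none of the 3 windows. A loose NF-kB pattern, a run of G and a run of C around a free spacer, which stood in 47.3%, was in the Fmod and Lum windows and not in that of Aspn. Of its 4 matches in Fmod 3 overlapped each other, as did the 3 in Lum. These are matches of letters, not binding sites.

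The largest differences in these genes lay between sets. Of the 5 tested genes, 4 differed among sets, namely Dcn, Lum, Fmod and Prelp (limma F test over 12 libraries with group as a term, adjusted p under 0.05), beside 45.4% of all genes tested. Without the shTon_TNF group these 4 still passed, with log2 differences for set 1 minus set 3 of 2.97 for Dcn, 2.88 for Lum, 1.17 for Fmod and -1.78 for Prelp. The direction was not shared: Dcn, Lum and Fmod were lowest in set 3, and Prelp was lowest in set 1. Because these are bulk samples, fewer cells of a type and less RNA per cell cannot be told apart.

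Dcn encodes decorin, which wraps collagen fibrils and binds TGF-beta. In sets 1, 2 and 3 it had 15812, 46943 and 1787 normalised reads in the libraries labelled shTon_TNF and 19821, 51426 and 1538 in shTon_CTR. In PLKO_TNF it had 18643, 43515 and 3128, and in PLKO_CTR 20391, 50193 and 3263. The sets did not overlap in any of the 12 libraries. Set means were 18670.0 ± 2038, 48020.0 ± 3549 and 2429 ± 893 (SD, n = 4 libraries each). The log2 difference was 3.01 for set 1 minus set 3 and 4.38 for set 2 minus set 3 (limma adjusted p = 2.39e-07).

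Lum encodes lumican, a keratan sulfate proteoglycan that limits fibril thickness, and its gene stands next to Dcn in the RefSeq gene order of chromosome 7. It had 7839, 11297 and 1078 normalised reads in the libraries labelled shTon_TNF of sets 1 to 3 and 11898, 15849.9 and 966 in shTon_CTR. PLKO_TNF had 8517, 10639 and 1618, and PLKO_CTR had 11186, 14570.5 and 1831. Set 3 lay below both other sets, which overlapped each other. The log2 difference was 2.87 for set 1 minus set 3 and 3.28 for set 2 minus set 3 (limma adjusted p = 8.41e-07).

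Fmod encodes fibromodulin, which binds collagen beside lumican and supports cross-linking. It had 419, 632 and 34.8 normalised reads in the libraries labelled shTon_TNF of sets 1 to 3, and 205, 625 and 49.5 in shTon_CTR. PLKO_TNF had 192, 1061 and 77.3, and PLKO_CTR had 165, 1389 and 145. The 3 sets did not overlap. The log2 difference was 1.77 for set 1 minus set 3 and 3.70 for set 2 minus set 3 (limma adjusted p = 0.000153).

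Prelp encodes a basic, heparin-binding member that links collagen to basement membranes. It lies beside Fmod in the RefSeq gene order of chromosome 13, yet it took another course across sets. It had 977, 2169.8 and 1612 normalised reads in the libraries labelled shTon_TNF of sets 1 to 3, and 605, 1756 and 1763 in shTon_CTR. PLKO_TNF had 810.1, 2488 and 2623, and PLKO_CTR had 564, 2991 and 2417. Set 1 lay below the other sets, which overlapped. The log2 difference was -1.51 for set 1 minus set 3 and 0.16 for set 2 minus set 3 (limma adjusted p = 0.000117).

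Bgn encodes biglycan, a chondroitin or dermatan sulfate proteoglycan, and is the X-linked member. It had 16017, 11103 and 11614 normalised reads in the libraries labelled shTon_TNF of sets 1 to 3, and 4795, 10683 and 9438 in shTon_CTR. PLKO_TNF had 5065, 11863 and 7187, and PLKO_CTR had 5264, 15565 and 17646. The sets overlapped, and the difference among them did not pass (log2 difference -0.69 for set 1 minus set 3, limma adjusted p = 0.0883). Without the shTon_TNF group it passed, with an adjusted p of 0.00272 and a log2 difference of -1.08 for set 1 minus set 3.

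Aspn encodes asporin, which binds collagen and restrains TGF-beta. It had 2.13, 11.8 and 0 normalised reads in the libraries labelled shTon_TNF of sets 1 to 3 and 8.48, 19.2 and 0 in shTon_CTR. PLKO_TNF had 4.32, 6.40 and 0, and PLKO_CTR had 3.14, 15.1 and 0. Over all libraries it had 77 reads, of which 23 were in set 1 and 54 in set 2. The 0 reads in each library of set 3 allow levels of up to 3.12 to 4.54 normalised reads, for counting error only.

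**Figure D1:**
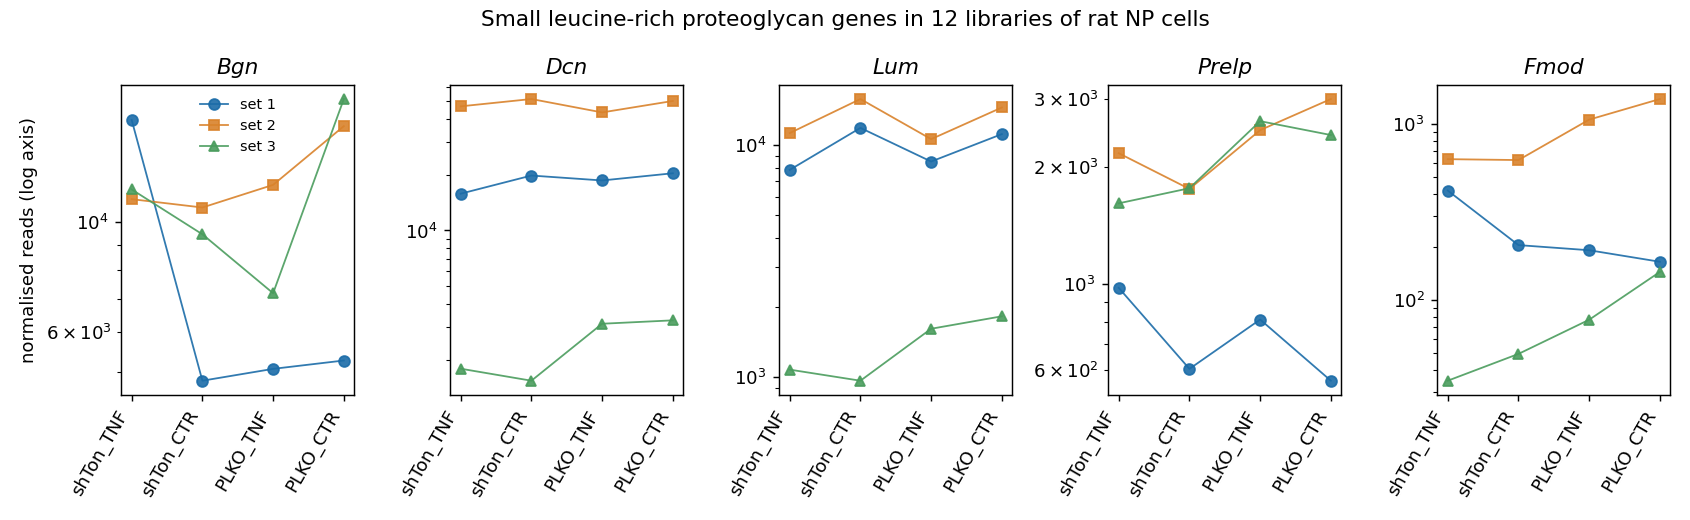
Normalised reads (log axis, scaled per gene) of the 5 tested genes in each of the 12 libraries, with 1 point per library and lines joining libraries of a set. Dcn, Lum and Fmod have set 3 at the bottom in every group, Prelp has set 1 at the bottom, and Bgn has crossing lines.

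Set accounted for 97.5% of the sum of squares of log2 levels in Dcn, 95.9% in Lum, 86.4% in Prelp, 86.3% in Fmod and 34.2% in Bgn, beside a median of 39.2% over all genes. The 4 groups accounted for 26.5% in Bgn and 0.918% in Dcn, beside a median of 28.1% over all genes. Dcn, Lum and Fmod were lowest in set 3, the set with the lowest skeletal muscle marker sums. Des of that list did not follow the sum. It had 81.2 to 201 normalised reads in set 3, 175 to 301 in set 1 and 36.3 to 53.4 in set 2. Every other gene of the list was lowest in set 3 without overlap. Summed smooth muscle and pericyte markers, 4 of 6 with a row, were lowest there too, at 3155 to 7523 normalised reads. Set 1 held 23870.0 to 33790.0 and set 2 held 9507 to 20360.0. Of this sum in set 3, Tagln alone had 2530 to 6393. Tagln and Cnn1 were lowest in set 3 without overlap, while Myh11 and Cspg4 overlapped there with both other sets. Annulus and tendon fibroblast markers, 6 of 7 with a row, summed to 12780.0 to 36840.0 in set 1 and 25100 to 62570.0 in set 2. They summed to 18380.0 to 26160.0 in set 3, and so overlapped. Single genes of this list went both ways. Thy1 had 668 to 1397 in set 3, 2437 to 2775 in set 1 and 2530 to 3447 in set 2. Pdgfra had 4023 to 17730 in set 3, 2030 to 3131 in set 1 and 3587 to 5855 in set 2. Thbs4 in set 3 lay below set 1 and Mkx above set 2, each overlapping the remaining set. For Scx and Col1a1 set 3 overlapped both other sets. The sum of the 5 nucleus pulposus markers tended higher in set 3, at 3408 to 7305 there, 1738 to 3926 in set 1 and 2814 to 4986 in set 2. Set 3 overlapped the others in this sum. Among them Krt8, a keratin of notochordal cells, had 1329 to 2278 normalised reads in set 3, 64.2 to 209 in set 1 and 68.3 to 192 in set 2. Cd24 and Foxf1 ran lower in set 3. Cd24 had 2.54 to 9.08 there, 7.47 to 29.2 in set 1 and 11.7 to 55.2 in set 2. Foxf1 had 95.1 to 120 there, 108 to 153 in set 1 and 125 to 156 in set 2. For Pax1 and Lgals3 set 3 overlapped both other sets. The part of these cell types in the result was not tested.

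Ratios of reads within a library, in which depth cancels, also set 3 apart for Dcn over Bgn and Fmod over Prelp, while sets 1 and 2 overlapped. Reads of Dcn per read of Bgn were 0.987 to 4.13 in the 4 libraries of set 1, 3.23 to 4.81 in set 2 and 0.154 to 0.435 in set 3. Reads of Fmod per read of Prelp were 0.237 to 0.429 in set 1, 0.291 to 0.464 in set 2 and 0.0216 to 0.0598 in set 3. Reads of Lum per read of Dcn stayed in a narrower band, at 0.457 to 0.600 in set 1, 0.241 to 0.308 in set 2 and 0.517 to 0.628 in set 3. Of the reads on genes of a deposited table, the 6 genes together took 0.335 ± 0.0311% in set 1. They took 0.617 ± 0.0663% in set 2 and 0.158 ± 0.0474% in set 3, each over 4 libraries with the SD.

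**Figure D2:**
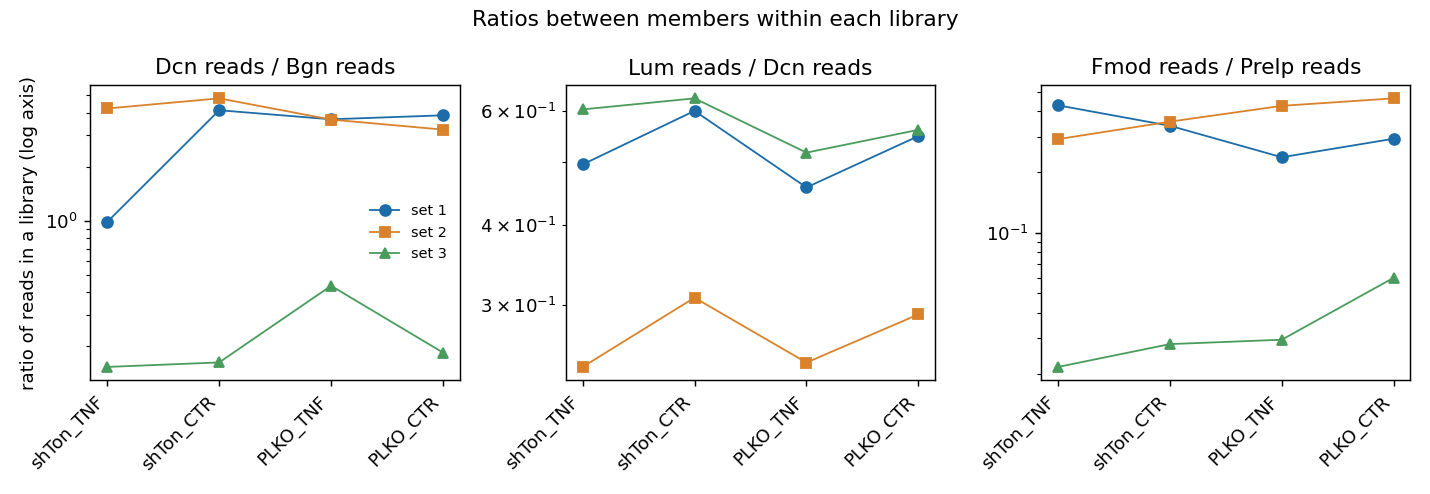
Ratios of reads between gene pairs within each library (log axis), with 1 point per library and lines joining a set. For Dcn over Bgn and Fmod over Prelp, set 3 lies below sets 1 and 2 in every group, and for Lum over Dcn set 2 lies lowest.

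TNF-a in PLKO cells was compared first, to see how the cytokine bears on these genes in cells with the control vector. Nfat5 itself had within-set log2 ratios of PLKO_TNF over PLKO_CTR of -0.10, -0.32 and -1.91, with a fold change of -0.78 (SE 0.32, 95% interval -1.53 to -0.02, limma adjusted p = 0.165). None of the 5 tested genes passed (limma with set as a block, 0 of 5), beside 9.62% of all genes tested, 4.97% higher and 4.65% lower. At an unadjusted p under 0.05 the count was 2, Bgn and Lum, beside 3584 of 12373 genes, and edgeR and DESeq2 also called 0. The median log2 fold change of the 5 was -0.34, beside -0.01 over all genes, and 4 of 5 were below 0.

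Bgn had within-set log2 ratios of PLKO_TNF over PLKO_CTR of -0.06, -0.39 and -1.29 in sets 1, 2 and 3. All 3 lie below 0, and they differ widely in size. The fold change was -0.58 (SE 0.228, 95% interval -1.12 to -0.04, limma adjusted p = 0.147), and without set 3 it was -0.23. The authors' deposited table gives -0.53 with an adjusted p of 0.0538, and 11.8% of its genes with an adjusted p pass.

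Lum had within-set log2 ratios of -0.40, -0.45 and -0.18, below 0 in 3 of 3 sets. Its fold change was -0.34 (SE 0.112, 95% interval -0.61 to -0.08, limma adjusted p = 0.0992). The authors' deposited table gives -0.33 with an adjusted p of 0.113. Dcn had -0.13, -0.21 and -0.06 in the 3 sets, with a fold change of -0.13 and an interval of -0.43 to 0.17. Fmod at -0.36 (interval -0.85 to 0.14) and Prelp at 0.12 (interval -0.24 to 0.48) had set ratios of both signs, and without set 3 the fold change of Fmod was -0.09.

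Around these 5 genes, other parts of the system did pass with TNF-a in PLKO cells. Means of PLKO_TNF and PLKO_CTR below are on the scale of the deposited table (SD, n = 3 each). Tsku, tsukushi, another small leucine-rich proteoglycan, rose to 1338 ± 649 normalised reads in PLKO_TNF, against 811 ± 314 in PLKO_CTR (log2 fold change 0.69, limma adjusted p = 0.0172). Optc, opticin, also passed at 1.15 (limma adjusted p = 0.0487) and lost the call in 8 of 11 alternative settings. Of 10 further family genes 4 had a row and 3 were tested, so 2 of 3 rose.

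Of 13 tested collagens of the fibrils that family members bind, 0 rose and 3 fell, with a median log2 fold change of -0.57. Col3a1, the type III fibril chain, fell to 5692 ± 4626 normalised reads in PLKO_TNF, against 15490.0 ± 11630.0 in PLKO_CTR (log2 fold change -1.70, limma adjusted p = 0.00934). Col6a3 fell by 1.31 and Col14a1 by 0.99 on the log2 scale (limma adjusted p = 0.0239 and 0.0328), and both lost the call when all 12 libraries were fitted, Col14a1 also without set 2.

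Of 23 genes that build chondroitin and dermatan sulfate chains, 3 rose and 1 fell. Ugdh, which makes the UDP-glucuronate used in every such chain, rose by 0.99, and Chsy1, a chain polymerase, by 0.72 (limma adjusted p = 0.00882 and 0.0158). Csgalnact1, which starts chondroitin chains, fell by 0.86 on the log2 scale (limma adjusted p = 0.00767). Of 6 keratan sulfate genes 1 rose, the sulfotransferase Chst2, by 0.80 (limma adjusted p = 0.022), which lost the call without set 2.

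Of 11 genes listed for processing or cleavage of the family, 3 rose and 1 fell. The 1 that fell encodes a procollagen proteinase enhancer, not a protease. The collagenase Mmp13 rose by 2.74 and stromelysin Mmp3 by 2.75, while Tll1, a procollagen and proteoglycan processing enzyme of the BMP1 family, rose by 1.60 (limma adjusted p = 0.000685, 0.00455 and 0.00176). Of 19 receptors and signalling partners 3 rose and 2 fell. Tlr2, a receptor for soluble biglycan, rose by 0.98 (limma adjusted p = 0.0136) and lost the call when all 12 libraries were fitted. Cd44, a receptor for hyaluronan, rose by 1.14 and Tgfb3 fell by 1.13 on the log2 scale (limma adjusted p = 0.0124 and 0.0295), the call of Tgfb3 being lost without set 2. Every one of these calls was lost without the set block, and without the mean-variance trend all of them but Mmp13 and Tll1 were lost too, 13 of 15. Nucleus pulposus markers summed to 2086 to 3408 normalised reads in PLKO_TNF and 3926 to 7305 in PLKO_CTR, with 3 of 5 lower at the threshold. Markers of other cell types were also lower at the threshold, 1 each of 5 fibroblast, 10 skeletal muscle and 4 smooth muscle genes tested, namely Scx (log2 fold change -0.77), Myod1 (-1.49) and Cnn1 (-0.73). Summed skeletal muscle markers ran from 171 to 42100 normalised reads in PLKO_TNF and from 190.4 to 53270.0 in PLKO_CTR, fibroblast markers from 12780.0 to 25100 in PLKO_TNF and from 13040.0 to 56310.0 in PLKO_CTR, and smooth muscle markers from 7523 to 23870.0 in PLKO_TNF and from 7441 to 26700.0 in PLKO_CTR. The groups overlapped in these 3 sums and not in that of nucleus pulposus markers. The part of a shift in cell types in these results was not tested.

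**Figure D3:**
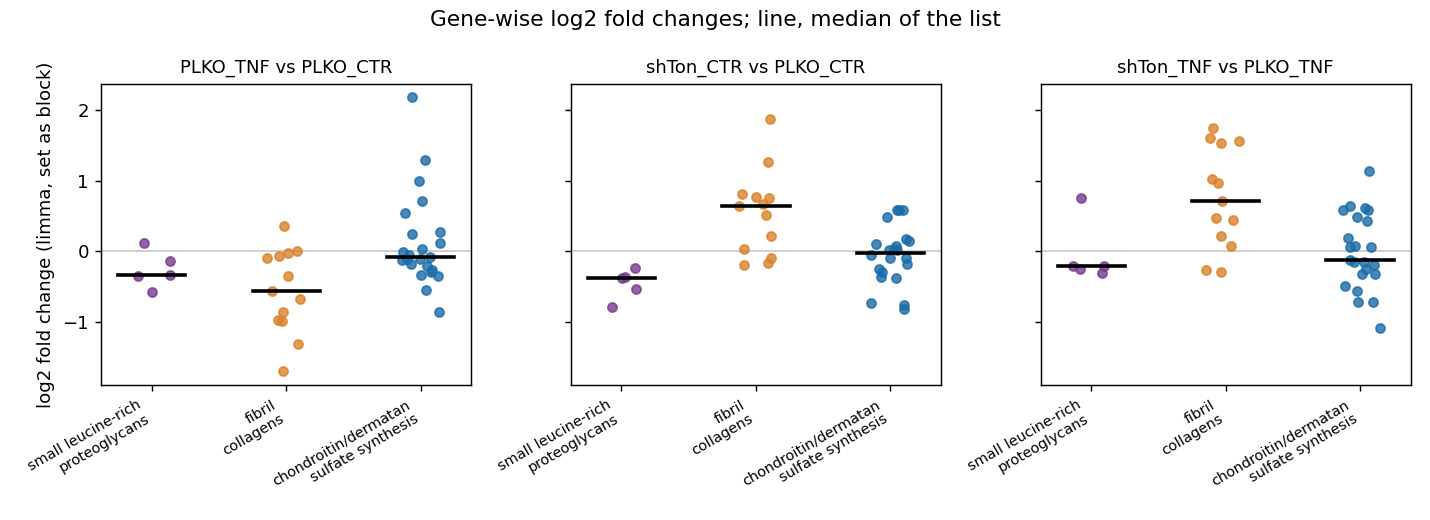
Log2 fold changes (limma, set as block) of the 5 tested family genes, the 13 collagens and the chondroitin and dermatan sulfate synthesis genes in 3 comparisons, with 1 point per gene and a bar at the median. The family median is -0.34, -0.38 and -0.21 from left to right, and the collagen median is -0.57, 0.65 and 0.71.

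Knockdown of TonEBP without TNF-a was compared next, to see which of these genes depend on the factor at rest. None of the 5 genes passed in limma (0 of 5), edgeR or DESeq2, beside 0.113% of all genes tested by limma, 0.0162% higher and 0.0969% lower. At an unadjusted p under 0.05 the count was 2, Bgn and Fmod, beside 2108 of 12383 genes. All 5 fold changes were below 0, with a median of -0.38 beside 0.01 over all genes. Nfat5 itself had a log2 fold change of -1.61 (limma adjusted p = 0.0963). The authors' deposited table lists -1.19 for it with an adjusted p of 4.57e-05, and 3.59% of the genes there pass.

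Bgn had within-set log2 ratios of shTon_CTR over PLKO_CTR of -0.14, -0.55 and -0.90. All lie below 0. The fold change was -0.53 (SE 0.176, 95% interval -0.94 to -0.12, limma adjusted p = 0.198). The within-set log2 ratios of Nfat5, the knocked-down gene, were -0.59, -1.58 and -2.66, so both genes fell least in set 1 and most in set 3. The ratios of Fmod, given next, had the same order of sets.

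Fmod had ratios of 0.31, -1.16 and -1.53, so set 1 stood apart. Its fold change was -0.79 (SE 0.324, 95% interval -1.55 to -0.03, limma adjusted p = 0.277). Without set 1 it was -1.34 and passed (limma adjusted p = 0.041). Set 1 is the set in which Nfat5 was lowered least. Whether the ratios of any gene follow the depth of knockdown was not tested. Those of Dcn, Lum and Prelp, given next, had other orders of sets.

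Dcn had ratios of -0.05, 0.03 and -1.08, and Lum 0.08, 0.11 and -0.92. For both, set 3 alone was clearly below 0, and without it the log2 fold change of Lum was 0.10. With all sets the fold changes were -0.37 for Dcn (interval -0.92 to 0.18) and -0.24 for Lum (interval -0.75 to 0.27). Prelp had ratios of 0.09, -0.78 and -0.45 and a fold change of -0.38 (SE 0.172, interval -0.78 to 0.03). The collagens lay the other way by value, with 10 of 13 above 0 and a median of 0.65, though 0 passed.

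**Figure D4:**
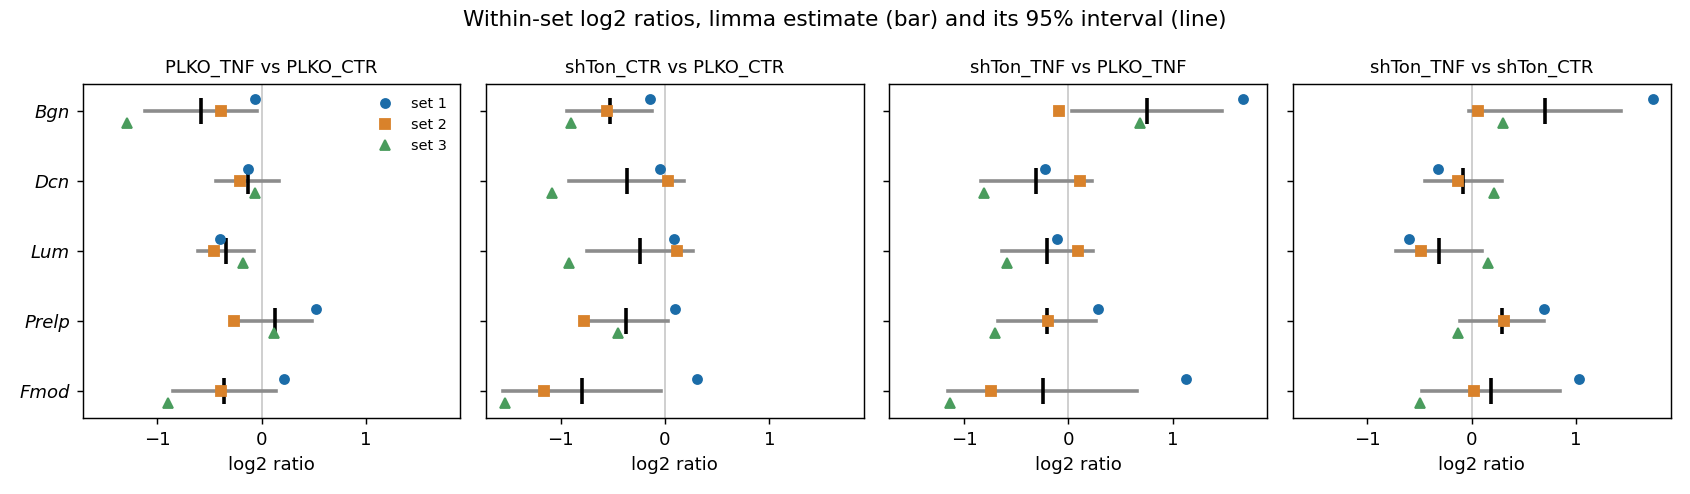
Within-set log2 ratios of the 5 genes in 4 comparisons (points, 1 per set), with the limma estimate (vertical bar) and its 95% interval (horizontal line). In the comparison of shTon_CTR with PLKO_CTR all 5 estimates lie below 0, and in both comparisons with shTon_TNF the Bgn point of set 1 lies far to the right, at 1.67 and 1.74.

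Knockdown in the presence of TNF-a gave another picture for Bgn. None of the 5 genes passed in limma, edgeR or DESeq2, beside 0.254% of all genes tested by limma, 0.115% higher and 0.139% lower, and 1, Bgn, had an unadjusted p under 0.05, beside 2079 of 12213 genes. The median log2 fold change was -0.21, beside 0.02 over all genes. Bgn was the 1 gene above 0.

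Bgn had within-set log2 ratios of shTon_TNF over PLKO_TNF of 1.67, -0.09 and 0.69. Set 1 is the largest, and it holds the library whose Nfat5 level goes against its label, with an Nfat5 ratio of 1.41 there. The fold change of Bgn was 0.76 (SE 0.312, 95% interval 0.04 to 1.47, limma adjusted p = 0.273). Without that library it was 0.30 (limma adjusted p = 0.667). In the authors' deposited table it is 0.60 with an adjusted p of 0.156, and 3.31% of the genes pass there.

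Fmod had ratios of 1.13, -0.74 and -1.13, again with set 1 apart. Its fold change was -0.25 (interval -1.15 to 0.65) and without the set 1 library -0.94 (limma adjusted p = 0.0668). Dcn at -0.31, Lum at -0.20 and Prelp at -0.21 all had intervals that span 0, and without that library they stood at -0.35, -0.25 and -0.45. Of the 13 collagens 2 rose, Col5a3 by 1.75 and Col3a1 by 1.53 (limma adjusted p = 0.0314 and 0.0389). Both kept the call without the set 1 library, at 1.75 and 1.57, and lost it without the set block and without the trend. Col3a1 also lost it with a pseudocount of 0.1 and in edgeR.

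TNF-a in shTon cells was then tested, and with it the interaction, that is, whether the response to TNF-a differed between shTon and PLKO cells. None of the 5 genes passed for TNF-a in shTon cells in limma, edgeR or DESeq2, beside 3.28% of all genes tested by limma, 1.95% higher and 1.33% lower, and 0 of 5 had an unadjusted p under 0.05, beside 2321 of 12339 genes. For the interaction 0 of 5 passed in the same tools, beside 0% of all genes (0 of 12310 in limma, 219 at an unadjusted p under 0.05, and 0 in edgeR and DESeq2), and 1, Bgn, had an unadjusted p under 0.05. All 5 interaction estimates were above 0, with a median of 0.16 beside 0.00147 over all genes. These comparisons share libraries with the earlier ones.

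Bgn had within-set log2 ratios of shTon_TNF over shTon_CTR of 1.74, 0.06 and 0.30. All lie above 0, where those of PLKO_TNF over PLKO_CTR lay below 0. The fold change was 0.70 (SE 0.309, 95% interval -0.03 to 1.43, limma adjusted p = 0.281), and without the set 1 library labelled shTon_TNF it was 0.18. The fold changes of Fmod, Dcn, Lum and Prelp were 0.18, -0.08, -0.31 and 0.29. Without that library they were -0.24, 0.04, -0.16 and 0.09, so the sign turned for Fmod and Dcn.

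The interaction for Bgn, the ratio in shTon minus that in PLKO, was 1.80, 0.45 and 1.60 in sets 1, 2 and 3. Its estimate was 1.28 (SE 0.515, 95% interval 0.14 to 2.42, limma unadjusted p = 0.0311, adjusted p = 0.999), and without the set 1 library labelled shTon_TNF it was 0.72. A difference in the response of Bgn was thus above 0 in 3 of 3 sets and did not survive adjustment. The value of set 3 uses the PLKO_TNF library with Nfat5 at 483 normalised reads, and no estimate is given without that library.

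The interaction was 0.54 for Fmod, 0.16 for Prelp, 0.05 for Dcn and 0.03 for Lum, and 0 of these passed. Without the set 1 library those of Fmod and Prelp were -0.16 and -0.13 and those of Dcn and Lum 0.07 and 0.06. That of Lum was below 0 in edgeR and DESeq2. Lum had TNF-a ratios in shTon cells of -0.60, -0.49 and 0.16, so sets 1 and 2 had the sign seen in PLKO cells and set 3 did not. Some genes around the family passed with TNF-a in shTon cells too. Tsku rose by 0.88 and Ugdh by 1.08 on the log2 scale, while Mmp13 and Mmp3 rose by 2.54 and 2.61 (limma adjusted p = 0.0378, 0.0121, 0.0011 and 0.00132), and these 4 kept their calls without the set 1 library. All 4 lost them without the set block, Tsku and Ugdh also without the trend, and Tsku also without set 3. Of the 13 collagens 0 passed, with a median of -0.18, and Col3a1 stood at -0.98 (limma adjusted p = 0.0671). Without the set 1 library Col3a1 was at -1.12 and passed (limma adjusted p = 0.00258). Tll1 at 0.59 and Tgfb3 at -1.19, which passed in PLKO cells, did not pass here (limma adjusted p = 0.0951 and 0.0501), and 0 genes passed for the interaction. Tll1 and Tgfb3 are named here after their values were seen. So were single nucleus pulposus, fibroblast, skeletal muscle and smooth muscle markers among sets above.

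The order of libraries within a set was compared with that of Nfat5, first for Bgn. In set 1 both ran, from high to low, shTon_TNF, PLKO_CTR, PLKO_TNF and shTon_CTR. In set 2 both ran PLKO_CTR, PLKO_TNF, shTon_TNF and shTon_CTR. In set 3 the orders differed, since Bgn was lowest in PLKO_TNF and Nfat5 in shTon_TNF. Fmod also had the Nfat5 order in 2 of 3 sets, sets 2 and 3, and Prelp had it in set 2. The share of all genes with the Nfat5 order was not counted, so these matches cannot be read as particular to the family. The pairing of Bgn with Nfat5 was singled out after the values were seen. Over all 12 libraries Nfat5 ranked 8625 of 12309 genes by nearness to Bgn, 0.829 apart on the distance explained next, and 581 by nearness to Fmod, 1.31 apart.

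**Figure D5:**
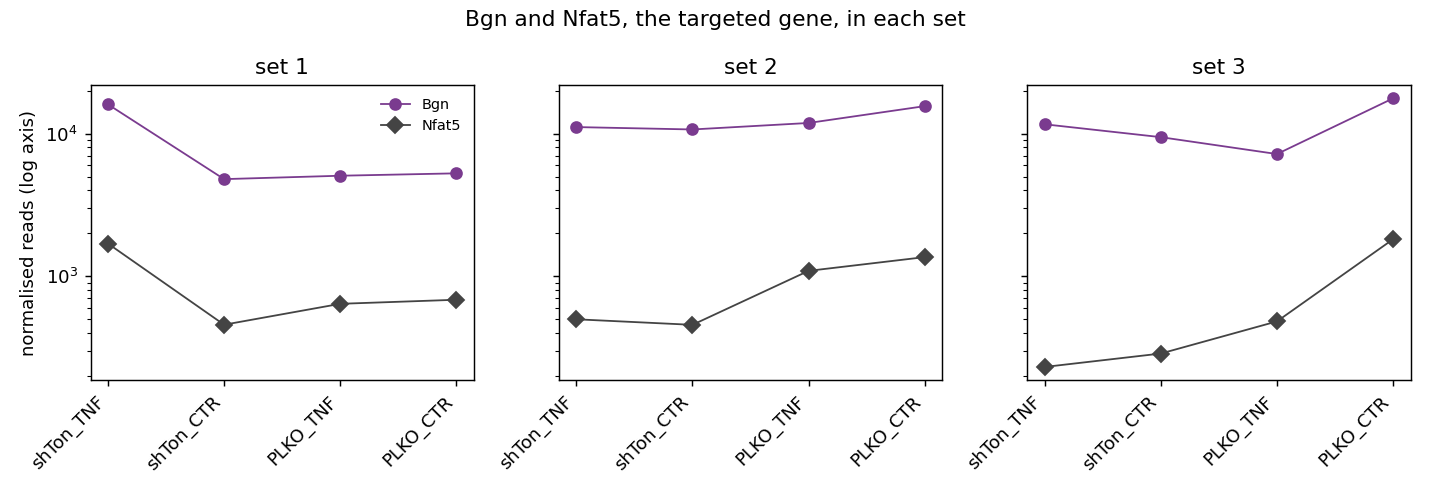
Normalised reads (log axis) of Bgn and of Nfat5, the gene targeted by the shRNA, in the 4 libraries of each set. The lines run alike in sets 1 and 2, with both genes highest in shTon_TNF in set 1, and part in set 3, where Bgn is lowest in PLKO_TNF.

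Likeness of profiles was measured as the root mean square distance between log2 levels over the 12 libraries, each gene centred on its mean, among 12310 genes. The gene nearest Bgn was Klf7, at 0.122, beside 0.254 for the next and a median of 0.736. Klf7, a zinc finger transcription factor, had 10 to 42 reads per library, and 1.76 to 2.32 reads for every 1000 of Bgn. It was picked as the nearest of all these genes, and counting error at so few reads limits what its distance can show. Why the 2 profiles lie so close was not tested. The nearest genes of the others were Fap for Dcn (0.336), Arhgap24 for Lum (0.285), Cgnl1 for Prelp (0.268) and Iqgap2 for Fmod (0.55).

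Within the family, Lum ranked 4 of 12309 genes by nearness to Dcn, at 0.506, and Fmod ranked 35, at 0.743. Prelp and Fmod, neighbours in gene order, were 1.66 apart. From Fmod this was near the median of 1.67 over all genes, with Prelp at rank 5848. From Prelp, where the median was 0.896, Fmod was far, at rank 11581. Dcn and Lum, also neighbours, were close. These distances describe 12 libraries that share 3 sets, and the set differences above dominate them.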

How the data were processed

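RNA was sequenced from 12 libraries of rat nucleus pulposus cells. The submitters' processing notes name Novoalign 2.08.01, DESeq2 and build rn5. Their roles, the read counter, annotation and strand setting go unstated. The authors deposited 3 tables of 13373, 13305 and 13176 genes, each with a normalised signal per library, log2 fold changes and adjusted p-values. The deposited signal is reads divided by 1 factor per library, as its steps show: 100% of values were whole reads within 0.001 read. Reads recovered this way summed to 7160042 to 18645538 per library, and intervals and floors cover counting error only. Libraries of a group were no copies of each other (chi-square per degree of freedom 73.3 to 167).

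Tests used limma 3.58.1 in R 4.3.3 on log2(value + 1), for genes with a mean of at least 10, with a mean-variance trend, set as a block and Benjamini-Hochberg adjustment over all genes at 0.05. Fold changes on this scale understate low genes. The 3 deposited pairs were fitted on their own tables. TNF-a in shTon cells, the interaction and the set F test used recovered reads with DESeq2 size factors over the 12899 common genes. edgeR 4.0.16 on recovered reads called 1205, 18, 29, 403 and 0 genes (TNF-a in PLKO, knockdown without and with TNF-a, TNF-a in shTon, interaction), and DESeq2 1.42.0 called 1348, 403, 363, 613 and 0. The authors' adjusted p was NA for 15% of genes.

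The block is used because same-numbered libraries deviated together (r 0.674 to 0.886 in 12 pairs, and -0.739 to 0.179 in 24 pairs of different sets), and because a DESeq2 fit with a set term came within a median of 0.000607 or less of the deposited log2 fold changes. The labels do not state that the numbers pair samples. The members, the lists, the block and the other settings were chosen with earlier results of these data known. All members are described, and of each other list the genes with the smallest adjusted p are named, up to 3 that passed per comparison. The context lists hold collagens, chain synthesis, proteases with their enhancers, receptors and cell type markers. Of the cartilage, endothelium and leukocyte lists 1 gene each had a row among the common genes (Comp, Tek and Cd68), and of the adipocyte list 0. Fabp4 of the adipocyte list was tested for knockdown with TNF-a and did not pass. Alternatives were no block, other pseudocounts, no filter, no trend, another scaling, edgeR, DESeq2, all 12 libraries, and each set left out. The scripts were tested on simulated data.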

Additional observations from a re-analysis of the deposited data

How the results depend on the processing

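No tested gene of the family changed its side of the threshold in a treatment comparison under any alternative, except Fmod, past it for knockdown without TNF-a when set 1 was left out (0 to 1 family genes over the sets left out). The 4 calls among sets held in all 9 alternatives. Counts over all genes depended far more on the settings. For TNF-a in PLKO cells limma called 1190.0 genes, 0 without the replicate block, 55 without the trend, 696 with all 12 libraries, and 545 to 1410.0 with 1 set left out. For knockdown without TNF-a it called 14, 0 without the replicate block, 2 and 23 with pseudocounts of 0.1 and 5, 0 without the trend, 3 with all 12 libraries, 403 in DESeq2, and 12 to 283 with 1 set left out. For knockdown with TNF-a it called 31, 0 without the replicate block, 12 with a pseudocount of 0.1, 0 without the trend, 444 with all 12 libraries, 363 in DESeq2, and 32 to 488 with a set or the set 1 library labelled shTon_TNF left out. For TNF-a in shTon cells it called 405, 6 without the replicate block, 143 without the trend, 613 in DESeq2, and 317 to 1105 with libraries left out. Among sets 5594 genes were called, and 3536 without the shTon_CTR group. The cause of these shifts was not tested. Leaving out that 1 library was chosen after seeing the data. Depth limits Aspn above all. With 3 libraries a group, a missed threshold does not show that levels were equal.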
